A study of Homo sapiens with 4 samples.

Results

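The 4 embryoid body samples of the series were split by their replicate number, and the 2 arrays titled replicate 2 were compared with the 2 titled replicate 1 (2 of 4 each, with no array outside the comparison). Embryoid bodies are aggregates in which pluripotent stem cells begin to differentiate without further direction. These came from BG01V, an established line of human embryonic stem cells whose karyotype is abnormal, which had formed aggregates for 48 h in suspension before transfer to gelatin-coated dishes in medium with 20% serum replacement and 10% serum. Each number held 1 array of embryoid bodies given the vehicle DMSO and 1 of embryoid bodies given 10 µM TBBD (ellagic acid, described in the series title as a histone arginine methylation inhibitor) for 48 h, as a rule from day 2 to day 4 of their formation. The line and the protocol were shared by all 4 samples. The labels do not say whether the numbers mark separate cultures. The p-values below thus rest on the spread among 4 arrays that may be technical, and culture, batch, RNA preparation and hybridisation cannot be told apart. RNA was hybridised to Affymetrix Human Gene 1.0 ST arrays, and the value of a gene is the mean log2 signal of its probesets, which was available for 18640 genes.

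As an embryonic stem cell leaves the pluripotent state, the transcription factors and signals that hold that state decline and genes of the primitive streak, the structure through which mesoderm and endoderm arise, are expressed for a short time. Later the derivatives appear, among them yolk sac and liver-like endoderm that secretes plasma proteins, mesenchyme that lays down collagen, and endothelium, while epithelial junctions are taken apart in the cells that become mesenchymal. The level of such genes therefore describes how far, and along which lineages, an embryoid body has differentiated. Because RNA was taken from whole embryoid bodies, fewer cells of a type and less RNA per cell cannot be told apart in any value below.

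The replicate 2 arrays had more RNA of a number of plasma proteins, collagens and endothelial genes, and less of several genes of undifferentiated cells, of the primitive streak and of epithelial junctions. With treatment as a term, limma's moderated test called 653 of 18640 genes at a Benjamini-Hochberg adjusted p under 0.05, or 3.5% of genes. On the replicate 2 arrays 428 of them, 2.3% of all genes, were higher and 225, or 1.21%, were lower. The differences were as large as 15.2-fold, with 156 of the higher and 50 of the lower genes past 2-fold, and the median difference over all genes was -0.0024 on the log2 scale. Both replicate 2 arrays lay above both replicate 1 arrays for 4670 genes (25.1%) and below both for 4830 (25.9%). Within each treatment alone, 103 genes (0.553%) were at least 2-fold higher in both pairs and 28 (0.15%) at least 2-fold lower. With 4 arrays and 3 terms the fit had 1 residual degree of freedom and borrowed 6.01 from all genes. With that borrowed number set to 4, 165 genes passed, and with it set to 3 none passed (limma, 2908 genes at an unadjusted p under 0.05). Of the 653 genes, 257 were also called with each of the 4 arrays left out in turn. An exact permutation test of 1 gene over 2 against 2 arrays cannot go below a p of 0.33.

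The DMSO pair and the TBBD pair share no array. Across genes, which are not independent replicates, the difference within DMSO and the difference within TBBD were correlated, with Pearson's r at 0.566 and Spearman's rho at 0.405. Of all genes, 62.0% had the same sign in both pairs. All 653 called genes did, but the gap between the pairs is the only residual of the fit, so a call all but requires the same sign and that count supports nothing. Likewise the arrays of the numbers did not overlap for 652 of the called genes and for 51.0% of all genes, and the call selects for this. The exception was ZIC2, a zinc finger factor of the neural plate.

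**Figure D1:**
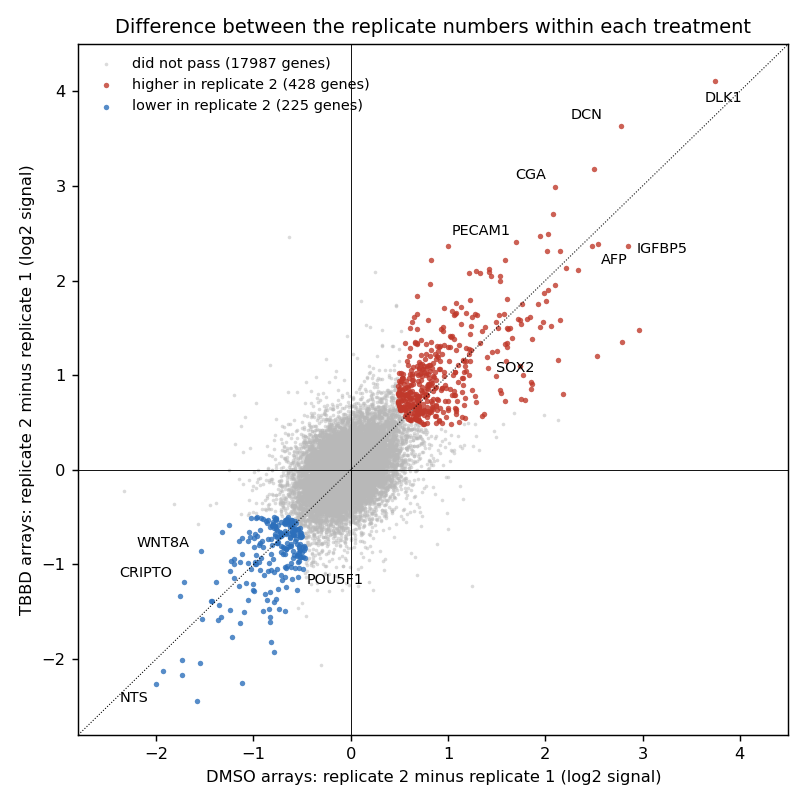
Difference between replicate 2 and replicate 1 in log2 signal, within the DMSO arrays (horizontal axis) and within the TBBD arrays (vertical axis), with 1 point per gene and the dotted line marking equal differences. The 428 genes higher on replicate 2 in limma (red) lie in the upper right and the 225 lower genes (blue) in the lower left, with DLK1 farthest out.

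Below, the values of a gene are given first for the replicate 1 arrays and then for the replicate 2 arrays, each as DMSO and then TBBD, on the log2 scale. A difference is replicate 2 minus replicate 1 on that scale, ± limma's moderated standard error with 2 arrays per number. Adjusted p-values are from limma over all 18640 genes. That error takes 6.01 degrees of freedom from all genes and 1 from the gene itself. It therefore lies near its median of 0.119 for many genes and is not the gene's own spread. With 1 array left out the treatment term could not be fitted, so those values come from the number alone, and the lone array of its number is assumed to vary like the other pair. For scale, olfactory receptor genes, which serve as a guide to dim signal, lay at a median of 5.41, and of 348 such genes 0 were called higher and 2 lower (limma, 3 and 6 at an unadjusted p under 0.05).

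The core transcription factors of pluripotency moved apart from each other. Of 15 measured members of the list, limma called 3 lower (POU5F1, SALL4, ETV4) and 1 higher (SOX2), and the median difference was -0.14. ETV4 is counted again below among FGF genes, so these calls are not those of pluripotency factors alone. SOX2, a factor of both pluripotent cells and the neural plate, had log2 values of 6.09 and 5.74 on the replicate 1 arrays and 7.49 and 6.93 on the replicate 2 arrays. Both replicate 2 values exceeded both replicate 1 values, a difference of 1.29 ± 0.12 (2.45-fold, adjusted p = 0.00343), and 3 of its 3 probesets were higher in both treatments. POU5F1, which encodes OCT4, had gene values of 7.75 and 7.73 against 7.20 and 6.60, a difference of -0.84 ± 0.16 (adjusted p = 0.0405). This mean covers unlike probesets, which the table holds as 2 pairs of identical values. The bright pair stood at 9.87 and 9.85 on replicate 1 and at 8.72 and 7.50 on replicate 2, or 3.37-fold lower, and the dim pair lay between 5.62 and 5.70 on all 4 arrays. NANOG did not pass, at 6.79 and 6.49 against 6.56 and 6.53 (-0.10 ± 0.13, adjusted p = 0.775), and its arrays overlapped. The arrays therefore separated SOX2 and POU5F1 in opposite directions and did not separate NANOG.

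These calls depended on single arrays. SOX2 missed the threshold without TBBD replicate 1 (1.12, adjusted p = 0.0638). POU5F1 missed it without DMSO replicate 1 (adjusted p = 0.142), TBBD replicate 1 (0.122) or TBBD replicate 2 (0.117), ETV4 when any array but TBBD replicate 1 was left out, and SALL4 when any of the 4 was. Leaving out DMSO replicate 1 turned the median of the list to 0.047, and leaving out TBBD replicate 1 moved it to -0.32.

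**Figure D2:**
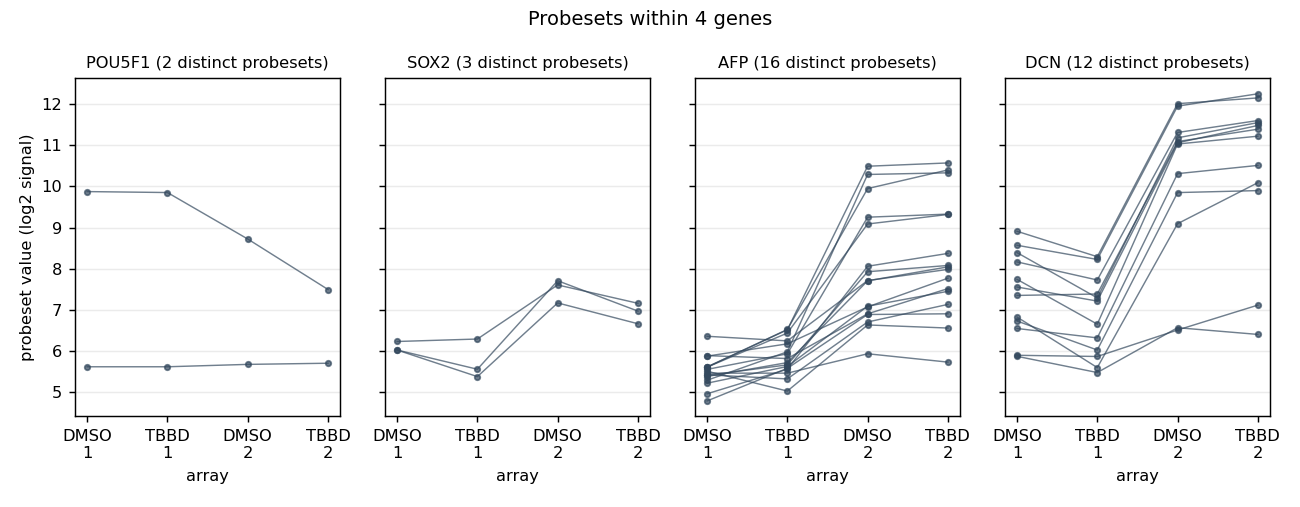
Log2 signal of each distinct probeset (lines) of POU5F1, SOX2, AFP and DCN on the 4 arrays, in the order DMSO and TBBD of replicate 1, then DMSO and TBBD of replicate 2. The bright POU5F1 probeset drops to 8.72 and 7.50 on replicate 2 while the dim one stays between 5.62 and 5.70, and SOX2, AFP and DCN have all or nearly all of their probesets higher on replicate 2.

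Other markers of undifferentiated cells were lower on replicate 2 where they passed. Of 29 measured, limma called 5 lower (CRIPTO, GAL, ZFP42, DNMT3B, L1TD1) and 0 higher (2 higher at an unadjusted p under 0.05), and the median difference was -0.24. ZFP42, which encodes REX1, stood at 7.75 and 7.54 against 6.63 and 6.65 (2.00-fold lower, adjusted p = 0.00944). Its replicate 1 values lay about 1 log2 unit above both replicate 2 values. The de novo DNA methyltransferase gene DNMT3B stood at 8.23 and 8.01 against 7.42 and 7.21 (-0.80 ± 0.11, adjusted p = 0.0164). CRIPTO, the co-receptor of Nodal once named TDGF1, had 8.77 and 7.68 against 7.06 and 6.49 (-1.45 ± 0.15, 2.73-fold, adjusted p = 0.00547), with DMSO replicate 1 the highest of the 4 arrays. GAL, which encodes the neuropeptide galanin, differed by -1.41 ± 0.11. Without DMSO replicate 1, DNMT3B (adjusted p = 0.0652), CRIPTO (-0.90, adjusted p = 0.111) and GAL (adjusted p = 0.105) missed the threshold, as did L1TD1, and all 4 genes missed it without TBBD replicate 2. LIN28A, which blocks the maturation of let-7, came close at 9.96 and 10.00 against 9.49 and 9.08 (-0.69 ± 0.14, adjusted p = 0.0516), whereas LIN28B, GDF3 and DPPA4 differed by between -0.20 and -0.02 and did not pass.

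Some primitive streak and early mesoderm genes were lower on replicate 2, and DMSO replicate 1 stood highest for most of the list. Of 22 measured members, limma called 5 lower (APLNR, WNT8A, CDX2, MESP2, NKX1-2) and 1 higher (KDR, also an endothelial receptor), and the median difference was -0.43. It was -0.78 within DMSO and -0.13 within TBBD, and DMSO replicate 1 was the highest of the 4 arrays for 18 of the 22 members, against 5450 of all 18640 genes. APLNR, the apelin receptor of early mesoderm, stood apart in both pairs, at 9.86 and 9.54 against 8.10 and 8.20 (-1.55 ± 0.14, 2.92-fold, adjusted p = 0.00303). The streak ligand WNT8A had 8.57 and 7.49 against 7.03 and 6.63 (-1.20 ± 0.17, adjusted p = 0.0167), and the caudal factor CDX2 had 7.39 and 6.87 against 6.07 and 6.21 (-0.99 ± 0.17, adjusted p = 0.0289). Both genes were lower on both replicate 2 arrays, and both lost the call with the median over probesets. MIXL1, a homeobox gene of mesendoderm, showed another pattern, with 7.85 on DMSO replicate 1 and 6.37, 6.04 and 6.01 on the others (adjusted p = 0.109). EOMES, a T-box factor, likewise had 7.38 on that array and 6.03, 6.23 and 5.92 elsewhere (adjusted p = 0.212). TBXT, which encodes brachyury, had 7.87 and 6.89 against 6.74 and 6.42 and did not pass (-0.80 ± 0.17, adjusted p = 0.0558). Without DMSO replicate 1 the median of the list was -0.088, and 3 of the 5 lower calls ended, those of WNT8A (-0.66, adjusted p = 0.129), MESP2 (-0.69, adjusted p = 0.190) and NKX1-2 (-0.48, adjusted p = 0.104). The same 3 ended without TBBD replicate 2, and those of WNT8A and NKX1-2 without DMSO replicate 2.

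Many secreted proteins of fetal liver and yolk sac endoderm were higher on replicate 2. Of 34 measured members, limma called 13 higher, or 38.2%, and 0 lower (0 also at an unadjusted p under 0.05), and the median difference was 0.36, within DMSO 0.35 and within TBBD 0.38. AFP, the fetal serum protein alpha-fetoprotein, had log2 values of 5.50 and 5.85 on replicate 1 and 7.98 and 8.22 on replicate 2. Its replicate 1 values lay near the olfactory receptor median and its replicate 2 values well above, a difference of 2.43 ± 0.12 (5.37-fold, adjusted p = 0.000893), and all 16 probesets were higher in both treatments. This fold is that of the mean over probesets, and single AFP probesets ranged from 1.29-fold for the dimmest to 25.5-fold. APOB, the structural protein of low-density lipoprotein, stood at 5.57 and 5.70 against 7.72 and 8.02 (2.23 ± 0.12, 4.71-fold, adjusted p = 0.000944). The fibrinogen chain genes FGB, at 5.47 and 5.43 against 7.55 and 8.14 (2.39 ± 0.16, 5.26-fold), and FGA, at 5.17 and 5.22 against 7.20 and 7.72 (2.26 ± 0.14, 4.79-fold), passed with adjusted p-values of 0.0014 and 0.00114. TTR, which encodes transthyretin, and VTN, which encodes vitronectin, differed by 1.55 ± 0.12 and 1.79 ± 0.15. RBP4, the plasma carrier of retinol, differed by 1.55 ± 0.12.

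Other liver genes did not follow. ALB, which encodes albumin and neighbours AFP on its chromosome, stood at 5.45 and 5.64 against 5.58 and 5.61 (0.05 ± 0.12, adjusted p = 0.897), all near the olfactory receptor level. APOA1 had 5.59 and 5.91 against 6.34 and 6.30 and did not pass (0.57 ± 0.13, adjusted p = 0.0705), nor did SERPINA1 (0.37 ± 0.12, adjusted p = 0.152). Among 14 measured transcription factors of hepatic and visceral endoderm, limma called 1 higher, FOXA1 (0.60 ± 0.12, adjusted p = 0.0499), which missed the threshold when TBBD replicate 1, DMSO replicate 2 or TBBD replicate 2 was left out. GATA4 (8.35 and 8.01 against 7.49 and 7.71) and GATA6 (9.36 and 9.03 against 9.31 and 9.33) did not pass. Of 21 measured genes of complement and coagulation, 6 were called higher and 0 lower, among them SERPINF1, which encodes an anti-angiogenic serpin, at 1.77 ± 0.18. Without TBBD replicate 2, 3 of the 6 calls remained, with CFB (adjusted p = 0.0945), TFPI (0.0635) and C1S (0.0655) missing the threshold. CFB, which encodes complement factor B, lay between 2.98 and 4.64 on all arrays, below the olfactory receptor median.

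As these secreted proteins were higher together, their promoters were searched for the letters GTTAAT, the core of the site bound by HNF1 factors of liver and yolk sac, on either strand (reverse complement ATTAAC). RefSeq start sites on GRCh38.p14 gave windows from 250 bases before to 50 after the start for 27 of the 34 members. The letters were found in 8 of the 27. These were AFP, FGA and FGB among the 10 called members with a window, and ALB, APOH, F2, PLG and SERPINA1 among the others. The share among called members, 3 of 10, was near that of all 27. The letters thus did not set the called members apart. Among all 35116 promoters of the table, 2417 held them, or 6.88%. The 8 of 27 counts genes with the letters in any of their promoters, whereas the 6.88% counts promoters, so the shares differ in unit. The match is a description of sequence and not of binding. The promoters of AFP and FGA, which were called, and of ALB, which was not, are shown for where the letters lie, with the match in capitals. It begins 132 bases before the start in AFP, 52 before it in FGA and 61 before it in ALB.
AFP promoter (chr4:73435971-73436270, plus strand): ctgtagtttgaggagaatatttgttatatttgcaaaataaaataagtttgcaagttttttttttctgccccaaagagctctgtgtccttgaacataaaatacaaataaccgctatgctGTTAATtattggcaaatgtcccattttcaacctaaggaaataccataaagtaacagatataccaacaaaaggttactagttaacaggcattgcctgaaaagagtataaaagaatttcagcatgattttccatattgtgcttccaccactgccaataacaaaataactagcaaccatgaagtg
FGA promoter (chr4:154590693-154590992, minus strand): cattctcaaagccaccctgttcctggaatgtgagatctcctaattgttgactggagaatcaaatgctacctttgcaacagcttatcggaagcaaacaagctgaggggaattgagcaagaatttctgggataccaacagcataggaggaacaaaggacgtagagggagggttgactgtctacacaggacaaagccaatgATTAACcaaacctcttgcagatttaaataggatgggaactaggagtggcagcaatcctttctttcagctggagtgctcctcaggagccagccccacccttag
ALB promoter (chr4:73404037-73404336, plus strand): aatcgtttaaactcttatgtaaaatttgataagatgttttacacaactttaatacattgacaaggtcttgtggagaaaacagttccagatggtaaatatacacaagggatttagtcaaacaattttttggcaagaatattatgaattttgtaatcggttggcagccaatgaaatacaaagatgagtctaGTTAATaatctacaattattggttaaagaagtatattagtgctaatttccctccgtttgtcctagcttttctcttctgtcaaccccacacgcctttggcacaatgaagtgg

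**Figure D3:**
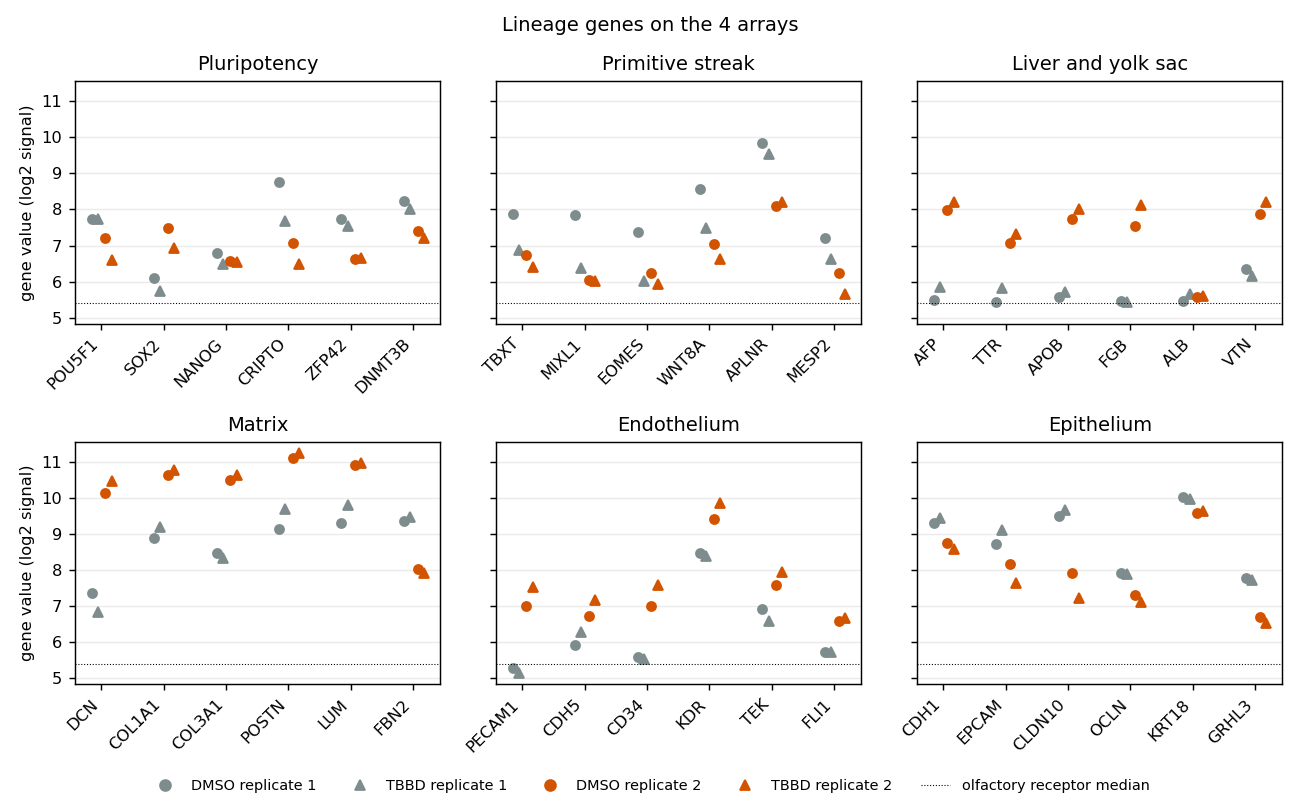
Gene values in log2 signal (vertical axis) for 6 genes of each of 6 roles on the 4 arrays, with replicate 1 in grey and replicate 2 in orange, DMSO as circles and TBBD as triangles, and the olfactory receptor median of 5.41 as a dotted line. AFP, TTR, APOB and FGB leave the dotted line only on replicate 2, ALB stays near it, and MIXL1 and EOMES stand high only on DMSO replicate 1.

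Fibrillar and network collagens had the largest share of members called higher among the 70 lists. Limma called 13 of 23 higher, or 56.5%, and 0 lower (0 also at an unadjusted p under 0.05). The median difference was 0.69. Both replicate 2 arrays lay above both replicate 1 arrays for 20 of the 23, against 25.1% of all genes. COL3A1, a chain of fibrillar collagen in soft tissue, had 8.48 and 8.34 against 10.50 and 10.65 (2.16 ± 0.13, 4.48-fold, adjusted p = 0.000944). The chains of the main fibrillar collagen, COL1A1 at 8.90 and 9.20 against 10.64 and 10.79 (1.66 ± 0.12) and COL1A2 at 8.67 and 8.74 against 10.25 and 10.39 (1.61 ± 0.11), differed 3.17-fold and 3.06-fold, and COL6A3, of a microfibrillar collagen, by 1.73 ± 0.12. The spread between DMSO and TBBD within a number was small beside these gaps. TBBD replicate 2 was the highest array for 17 of the 23 genes, against 5383 of all 18640 genes.

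Matrix glycoproteins and proteoglycans had 14 of 35 members called higher and 1 lower. DCN, the small proteoglycan decorin that coats collagen fibrils, had 7.38 and 6.84 against 10.16 and 10.47, a difference of 3.21 ± 0.20 (9.24-fold, adjusted p = 0.000986). Single DCN probesets ranged from 1.75-fold for the dimmest to 15.7-fold. MFAP4, of elastic fibres, had 6.76 and 6.45 against 9.26 and 9.62 (2.84 ± 0.17, 7.17-fold, adjusted p = 0.000944). POSTN (periostin), BGN (biglycan), LUM (lumican) and FN1 (fibronectin) were also higher, by 1.77 ± 0.14, 1.84 ± 0.12, 1.38 ± 0.14 and 0.88 ± 0.12. The exception was FBN2, the fibrillin of embryonic microfibrils, at 9.38 and 9.49 against 8.05 and 7.94 (-1.44 ± 0.12, adjusted p = 0.00246). Both replicate 1 arrays lay above both replicate 2 arrays. Without TBBD replicate 2, 9 of the 14 higher calls remained, with NID1, SPARC, FBN1, FBLN1 and MATN2 missing the threshold.

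Enzymes that act on matrix moved with it in part. Of 20 measured genes of collagen processing, 4 were called higher and 1 lower. PCOLCE, which enhances procollagen cleavage, stood at 7.48 and 7.29 against 8.90 and 9.38 (1.75 ± 0.17), and LOXL1, a cross-linking oxidase, differed by 0.93 ± 0.12. The calls of ADAMTS2, PLOD1 and P3H2 (lower, -0.91 ± 0.12) ended without DMSO replicate 1, and each also without a replicate 2 array. Among 19 proteases and inhibitors 4 were higher (MMP9, ADAMTS1, PLAT, TIMP1), and TIMP1 lost the call when any array but DMSO replicate 2 was left out. MMP9, a gelatinase, stood at 5.69 and 6.08 against 7.41 and 7.68 (1.66 ± 0.12, 3.16-fold, adjusted p = 0.00149).

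Mesenchyme regulators were less uniform. Limma called 6 of 26 higher (TCF21, ZEB2, NT5E, PRRX1, ZEB1, PDGFRB) and 1 lower (MSX2), with a median difference of 0.34. TCF21, a bHLH factor of organ mesenchyme, stood at 6.44 and 6.32 against 7.49 and 8.0 (1.36 ± 0.17, adjusted p = 0.00944), both replicate 2 arrays being higher. The call of ZEB2 ended without TBBD replicate 1 (0.86, adjusted p = 0.0586), that of ZEB1 without TBBD replicate 1 or DMSO replicate 2, and those of NT5E, PRRX1 and PDGFRB when any array but DMSO replicate 2 was left out. TWIST1 and SNAI2, factors of epithelial to mesenchymal transition, differed by 0.05 ± 0.11 and 0.12 ± 0.12 and did not pass. VIM (vimentin) had 9.74 and 9.64 against 10.09 and 10.22 and did not pass either (adjusted p = 0.0952).

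Many endothelial markers were higher on replicate 2. Of 24 measured, limma called 11 higher, or 45.8%, and 0 lower (0 also at an unadjusted p under 0.05), with a median difference of 0.48, within DMSO 0.41 and within TBBD 0.72. PECAM1, the adhesion molecule CD31, had 5.30 and 5.14 against 7.00 and 7.54 (2.05 ± 0.17, 4.15-fold, adjusted p = 0.00246). CD34, a sialomucin of endothelium and blood progenitors, had 5.58 and 5.54 against 7.02 and 7.59 (1.74 ± 0.16, adjusted p = 0.00343). On the replicate 1 arrays both genes were near the olfactory receptor level. The VEGF receptor gene KDR stood at 8.49 and 8.39 against 9.41 and 9.87 (1.21 ± 0.15, adjusted p = 0.0114). CDH5, which encodes VE-cadherin, had 5.93 and 6.28 against 6.73 and 7.18 (0.85 ± 0.12, adjusted p = 0.0135), and TEK, the angiopoietin receptor, differed by 1.01 ± 0.17. CDH5 missed the threshold without DMSO replicate 1 (adjusted p = 0.144), TBBD replicate 1 or TBBD replicate 2, and TEK with either TBBD array left out. Without TBBD replicate 2, 6 of the 11 calls remained, since ERG (adjusted p = 0.0514), S1PR1 (0.0856) and ESAM (0.268) missed it too, and without TBBD replicate 1 there were 7. TBBD replicate 2 was the highest array for 20 of the 24 markers, against 5383 of all 18640 genes.

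Blood markers did not accompany the endothelial ones. Of 17 measured, limma called 0 higher (0 at an unadjusted p under 0.05) and 1 lower, GATA2 (7.01 and 7.34 against 6.30 and 6.18). The median difference was 0.0047. On both replicate 2 arrays 4 members lay above and 2 below, against 25.1% and 25.9% of all genes. Among cardiac markers, HAND2, MEF2C and TNNI1 were called higher and ACTC1 and NPPB lower, of 26. HAND2, a bHLH factor of heart and limb, had 6.41 and 6.22 against 7.63 and 8.01 (1.51 ± 0.16, adjusted p = 0.00532), whereas ACTC1, cardiac actin, had 9.53 and 9.43 against 8.76 and 8.91 (-0.64 ± 0.12, adjusted p = 0.0415) and kept its call only without TBBD replicate 2. NPPB, a natriuretic peptide gene, kept it only without DMSO replicate 1. Smooth muscle markers split as well, with ACTA2, smooth muscle actin, higher by 1.22 ± 0.14 and MYOCD, its coactivator myocardin, lower by a difference of -1.07 ± 0.12, of 15 measured. Skeletal muscle regulators, germ cell markers and lung and thyroid markers had 0 calls in limma, of 11, 16 and 10 measured, and at an unadjusted p under 0.05 they had 3, 4 and 0 members.

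A minority of epithelial genes were lower on replicate 2. Of 27 junction genes, limma called 5 lower (CLDN10, OCLN, CDH1, ESRP1, PROM1) and 0 higher (0 also at an unadjusted p under 0.05), and the median difference was -0.20, with 8 members above 0. CLDN10, a claudin of tight junctions, had 9.50 and 9.67 against 7.92 and 7.23 (-2.01 ± 0.20, 4.02-fold, adjusted p = 0.00439). E-cadherin, encoded by CDH1, had 9.30 and 9.45 against 8.76 and 8.58 (-0.71 ± 0.13, adjusted p = 0.0377), and the call ended with either TBBD array left out. OCLN (occludin) and ESRP1, a splicing factor of epithelia, lost the call with any array but DMSO replicate 2 left out, and PROM1 with any but DMSO replicate 1, so that 1 call, CLDN10, remained with either TBBD array left out. EPCAM had 8.73 and 9.12 against 8.18 and 7.66 and just missed the threshold (adjusted p = 0.0518). Of 19 surface ectoderm genes 2 were called lower, GRHL3 (7.78 and 7.74 against 6.70 and 6.54), a factor of surface ectoderm, and KRT23, with a median of -0.36. KRT18, a keratin of simple epithelia, stood at 10.03 and 9.97 against 9.58 and 9.64 and did not pass (adjusted p = 0.136).

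Extraembryonic genes gave a mixed picture. CGA, the shared alpha subunit of the glycoprotein hormones and a product of syncytiotrophoblast, had 5.45 and 5.43 against 7.55 and 8.43 (2.55 ± 0.20, 5.85-fold, adjusted p = 0.00221), so it left the olfactory receptor level only on replicate 2. Of 22 trophoblast markers limma called 4 higher (CGA, ERVFRD-1, ERVW-1, VGLL1) and 1 lower (GATA2), and the median was -0.0028. The calls of the syncytin genes ERVFRD-1 and ERVW-1 ended with either replicate 1 array left out, ERVW-1 also without TBBD replicate 2, and that of VGLL1 without DMSO replicate 1 or TBBD replicate 2. Amnion-like markers had 6 of 12 called higher and 0 lower, with a median of 0.41. GABRP, a GABA receptor subunit, stood at 8.30 and 8.57 against 10.24 and 10.08 (1.73 ± 0.14), and VTCN1, an immune checkpoint ligand, at 7.22 and 7.76 against 9.07 and 8.69 (1.39 ± 0.21). Of the called members, POSTN, TFAP2B, IGFBP3 and HEY1 were also counted in the matrix, neural crest, IGF and Notch lists, in that order.

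Neural plate and progenitor markers held several calls and no common shift. Of 26, limma called 4 higher (DLK1, PLAGL1, POU3F2, ZIC2), or 15.4% beside 2.3% of all genes, and 0 lower (3 at an unadjusted p under 0.05), and the median was 0.02. DLK1 and PLAGL1 are counted again below among imprinted growth regulators, so this share is not one of neural genes alone. POU3F2 lost the call with any array but TBBD replicate 2 left out and ZIC2 with each of the 4. PAX6 (0.28 ± 0.12) and SOX1 (0.24 ± 0.11), which mark committed neural cells, lay between 4.99 and 5.72 on all arrays and did not pass. NES (nestin) had 7.53 and 7.37 against 7.13 and 7.05 and did not pass (adjusted p = 0.167). Of 20 neuron markers 2 were called higher (STMN2, MAP2) and 1 lower (SYT1), with a median of 0.04, and all 3 calls ended without DMSO replicate 1. Among 16 neural crest specifiers 2 were higher (TFAP2B, NGFR) and 1 lower (MSX2), NGFR not when any array but TBBD replicate 1 was left out, with TFAP2B, an AP-2 factor, at 5.88 and 5.79 against 7.38 and 7.04 (1.38 ± 0.12). SOX10 did not pass (0.44 ± 0.12, adjusted p = 0.118). Of 38 HOX genes in 3 lists, only HOXA2 was called (0.62 ± 0.11), and its call ended with each array left out.

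**Figure D4:**
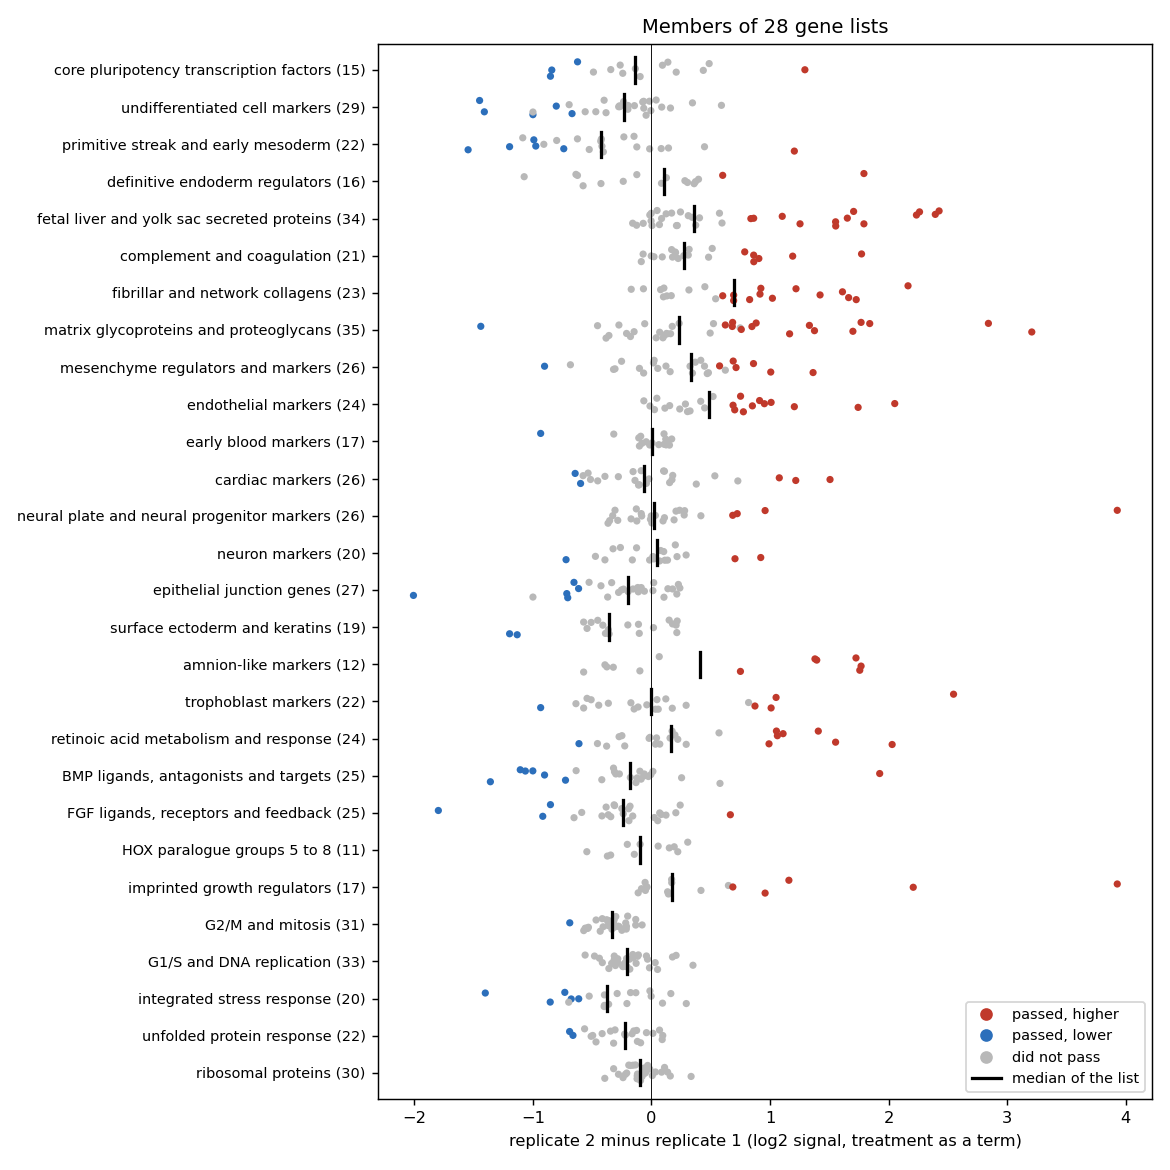
Difference between replicate 2 and replicate 1 on the log2 scale, with treatment as a term, for every measured member (points, with random vertical spread) of 28 gene lists, whose measured size is in brackets. Red and blue points passed limma's threshold in either direction and the bar is the median, at 0.69 for collagens, 0.48 for endothelial markers, 0.36 for secreted liver proteins and -0.43 for primitive streak genes.

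Imprinted growth regulators held the gene with the largest difference of all. DLK1, a Notch-like ligand of fetal progenitors, had 6.30 and 6.34 on replicate 1 and 10.04 and 10.46 on replicate 2, a difference of 3.93 ± 0.13 (15.2-fold, adjusted p = 0.000246). Single DLK1 probesets ranged from 4.07-fold to 34.2-fold, the latter for the dimmest, at 4.79 and 2.19 against 8.39 and 8.79. That fold rests in part on the TBBD replicate 1 value of 2.19, far below the olfactory receptor median. The next largest was 22.8-fold. PEG10, a retrotransposon-derived gene of placenta, stood at 8.34 and 8.09 against 10.29 and 10.56 (2.21 ± 0.15, 4.62-fold, adjusted p = 0.0014). IGF2, the fetal growth factor, measured on 2 probesets, had 10.47 and 11.25 against 12.05 and 11.98 (1.16 ± 0.20, adjusted p = 0.0289) and missed the threshold with either replicate 2 array left out. With PLAGL1 and CDKN1C, 5 of 17 were called higher and 0 lower, CDKN1C not when any array but TBBD replicate 1 was left out. H19, which shares the locus of IGF2, had 7.51 and 7.96 against 8.49 and 8.28 and did not pass (0.65 ± 0.17, adjusted p = 0.0935). Of 19 IGF receptors and binding proteins, a list that also holds IGF2, limma called 4 higher (IGFBP5, IGFBP3, IGF2, PAPPA) and 0 lower (3 at an unadjusted p under 0.05), and the median was -0.07. Without TBBD replicate 2 only IGFBP5 and IGFBP3 of these kept the call. IGFBP5 stood at 6.75 and 6.69 against 9.59 and 9.05 (2.61 ± 0.15, 6.09-fold, adjusted p = 0.000944) and IGFBP3 at 7.95 and 8.28 against 9.72 and 10.03 (1.76 ± 0.11, 3.38-fold, adjusted p = 0.00115).

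Signalling genes differed by pathway. Among ligands, antagonists and targets of BMP signalling, limma called 6 of 25 lower and 1 higher, with a median of -0.18. ID3, an immediate BMP target, had 8.53 and 8.38 against 7.53 and 7.17 (-1.11 ± 0.12, adjusted p = 0.00634), and the feedback inhibitor SMAD6 had 7.73 and 8.12 against 6.90 and 6.83 (-1.06 ± 0.14, adjusted p = 0.0134). The related target ID1 was called lower, but missed the threshold with either replicate 1 array left out, and the extracellular modulator BMPER by -1.36 ± 0.12, with an adjusted p of 0.0521 without DMSO replicate 1. BMPR1A, a BMP receptor gene, lost the call when any array but DMSO replicate 2 was left out, so that without DMSO replicate 1 there were 3 of the 6 lower calls. The ligand gene BMP5 went the other way, at 6.08 and 6.38 against 8.06 and 8.25 (1.93 ± 0.12, 3.80-fold, adjusted p = 0.000944). These targets and this ligand gene were thus separated in opposite directions.

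Retinoic acid genes were called higher more than lower, 7 against 1 of 24. CRABP1, which binds retinoic acid in the cytoplasm, had 7.66 and 7.37 against 9.76 and 9.33 (2.03 ± 0.12, 4.08-fold, adjusted p = 0.000944). The nuclear receptor genes NR2F1 (5.87 and 5.77 against 7.21 and 7.24) and NR2F2 (5.99 and 6.13 against 7.17 and 7.17) differed by 1.41 ± 0.12 and 1.11 ± 0.12. CYP26A1, which degrades retinoic acid, was lower (-0.61 ± 0.11, adjusted p = 0.0395), and its call ended with each array left out.

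FGF genes had 3 of 25 members lower and 1 higher. FGF19 had 7.25 and 7.51 against 5.70 and 5.47 (-1.80 ± 0.15, 3.48-fold, adjusted p = 0.00226), so that its replicate 2 values lay near the olfactory receptor level. SPRY4, ETV4 (also counted above) and, in the other direction, FGFR2 missed the threshold when any array but TBBD replicate 1 was left out. Among 21 canonical Wnt targets LGR5 and RNF43 were lower and APCDD1 higher. RNF43 was not called without TBBD replicate 1, nor APCDD1 with either TBBD array left out. LGR5, the R-spondin receptor, had 8.42 and 7.50 against 7.04 and 6.31 (-1.28 ± 0.12, adjusted p = 0.00343, but 0.199 without DMSO replicate 1 and 0.219 without TBBD replicate 2). Of 24 secreted Wnt components 3 were called higher (FRZB, RSPO1, RSPO3) and 1 lower (WNT8A, above), and the median was -0.11, with 15 members below 0. FRZB, an antagonist, stood at 6.40 and 6.76 against 8.94 and 9.14 (2.46 ± 0.12, 5.51-fold, adjusted p = 0.000893), and RSPO1 and RSPO3, R-spondin ligands, at differences of 1.35 ± 0.12 and 1.26 ± 0.25, the latter not called with either TBBD array left out. In the Nodal list 2 of 19 were lower (CRIPTO, FOXH1) and 1 higher (FST). FOXH1 lost the call when any array but TBBD replicate 1 was left out, and FST with either TBBD array left out. The ligand gene NODAL lay between 5.42 and 5.53 on all arrays.

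Mitotic genes lay lower as a block, by little. All 31 measured G2/M genes had a negative difference, with a median of -0.33. Both replicate 2 arrays lay below both replicate 1 arrays for 26 of them, against 25.9% of all genes. Yet limma called only CENPE (-0.69 ± 0.12, adjusted p = 0.0319), a kinetochore motor, which lost the call with either DMSO array left out. MKI67 had 8.96 and 8.85 against 8.66 and 8.60 and TOP2A had 9.82 and 9.97 against 9.62 and 9.45, and neither passed. The list of G1/S and replication genes had 0 of 33 called in limma (10 at an unadjusted p under 0.05), with 28 lower and a median of -0.21. DMSO replicate 1 was the highest array for 28 of them, against 5450 of all 18640 genes. The median of this list was -0.35 within DMSO and -0.04 within TBBD.

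Some amino acid supply and stress genes were lower on replicate 2. Of 20 genes of the integrated stress response, limma called 5 lower (SLC7A5, SLC3A2, ASNS, CHAC1, MTHFD2) and 0 higher (0 also at an unadjusted p under 0.05), with a median of -0.38. SLC7A5, a transporter of large neutral amino acids, had 10.86 and 10.70 against 9.44 and 9.32 (-1.40 ± 0.11, 2.64-fold, adjusted p = 0.00226), and its partner chain SLC3A2 had 8.95 and 8.80 against 7.96 and 8.08 (-0.85 ± 0.13, adjusted p = 0.0178). ASNS, asparagine synthetase, and CHAC1, which degrades glutathione, lost the call when any array but DMSO replicate 1 was left out, and MTHFD2 with each array left out. In the unfolded protein response HSPA5 and HYOU1, chaperones of the endoplasmic reticulum, were lower, of 22, and both missed the threshold with either DMSO array left out, HYOU1 also without TBBD replicate 2 and HSPA5 also without TBBD replicate 1. Of 22 p53 targets 1 was called lower, PMAIP1, a BCL2 family gene of cell death, and 0 higher (1 at an unadjusted p under 0.05). Limma called 0 of 16 heat shock proteins (8 lower at an unadjusted p under 0.05, median -0.34) and 0 of 11 metallothioneins (2 lower, median -0.26).

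Among the largest lower differences were those in NTS, the peptide neurotensin, at 10.30 and 9.68 against 8.29 and 7.41 (-2.13 ± 0.12, 4.38-fold, adjusted p = 0.000944, and 0.0515 without DMSO replicate 1), and ATP12A, a proton-potassium pump, at 8.82 and 8.64 against 6.89 and 6.51 (-2.03 ± 0.12, 4.08-fold, adjusted p = 0.000944). HPGD, which inactivates prostaglandins, had 9.42 and 9.40 against 7.68 and 7.38 (-1.87 ± 0.13, 3.67-fold). SPP1, the secreted phosphoprotein osteopontin, had 9.68 and 9.80 against 7.95 and 7.63 (-1.95 ± 0.14, 3.87-fold), and belongs to the cartilage and bone markers, of which 2 were called higher (SOX6, COL2A1) and 2 lower (ALPL, SPP1) of 16. Among higher genes, SLIT3, a guidance ligand, had 6.36 and 6.72 against 8.70 and 8.84 (2.23 ± 0.12, 4.67-fold), and NTRK2, the BDNF receptor, had 5.76 and 5.93 against 7.97 and 8.07 (2.17 ± 0.12, 4.51-fold). The replicate 1 and replicate 2 arrays did not overlap for the genes given here with values. The rule that named these genes required this, so it adds no support.

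Set side by side, the lists differed in how alike the treatments were. Collagens had medians of 0.69 within DMSO and 0.64 within TBBD, secreted liver proteins 0.35 and 0.38, and mitotic genes -0.33 and -0.31. Primitive streak genes had -0.78 and -0.13, Wnt targets -0.50 and -0.12, and the integrated stress response -0.19 and -0.55. A difference between the treatments in these values was not tested, since the interaction leaves no residual degree of freedom.

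**Figure D5:**
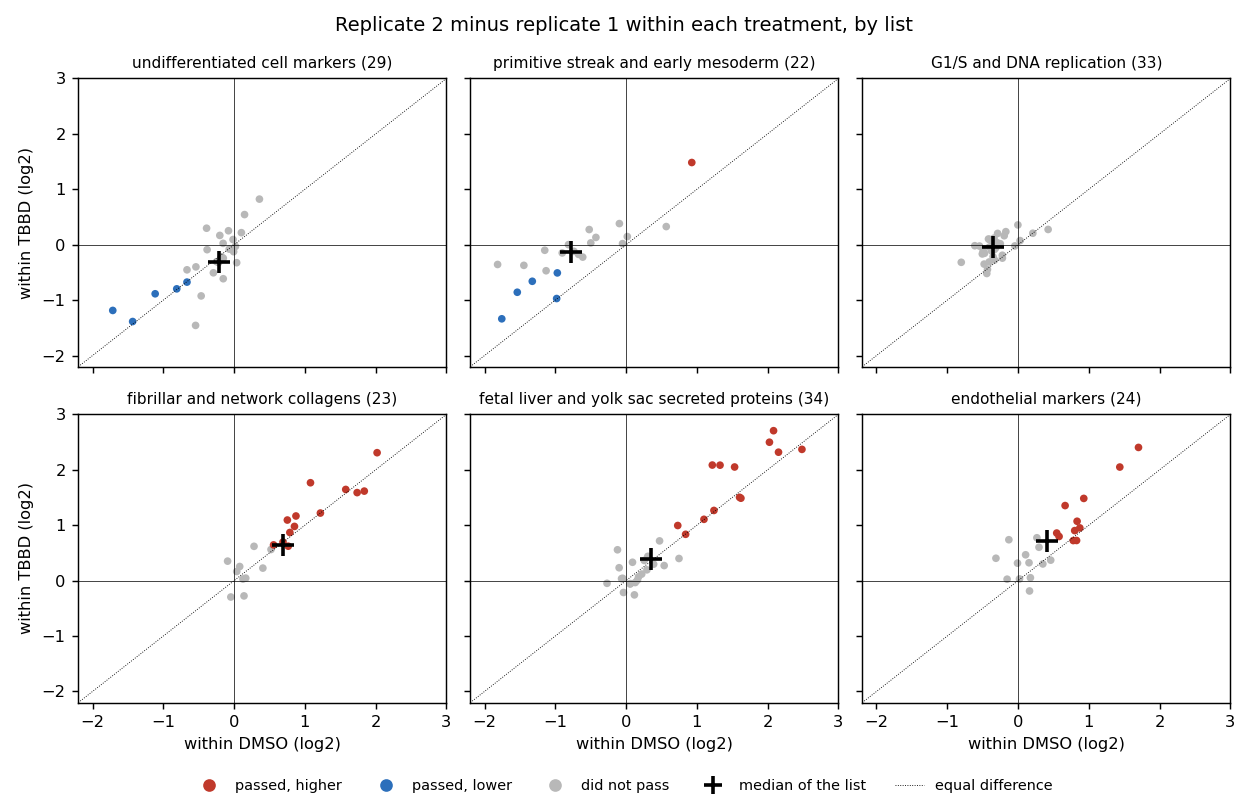
Difference between replicate 2 and replicate 1 in log2 signal within DMSO (horizontal axis) and within TBBD (vertical axis) for the members of 6 lists, with a cross at the medians and a dotted line of equal difference. Collagens (0.69 and 0.64) and liver proteins (0.35 and 0.38) lie along the line, while streak genes (-0.78 and -0.13) spread to the left of it.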

How the data were processed

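Gene expression was measured on 4 arrays, 1 for each treatment and replicate number, both taken from the sample titles. The values as deposited by the authors are log2 signals of exon-level probesets, summarised with RMA per the submitters' processing notes. For the version of RMA, the genome build and the scan dates, the sources used here give nothing. The table held 247312 probesets, with medians between 6.39 and 6.42 on the arrays. Probesets with a placeholder cell (277) were left out, as were those with several gene symbols (9980) or none (18151). Symbols were updated through a RefSeq table, and the remaining 218927 probesets were averaged per gene and array, with a median of 9 per gene. No detection call was used, and the number of arrays limits the precision.

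Replicate 2 was compared with replicate 1 with limma 3.58.1 in R 4.3.3, with treatment as a covariate, two-sided, with Benjamini-Hochberg adjustment over 18640 genes and a threshold of 0.05. The fit was first run on simulated data with 67, 67 and 66 planted changes of 2-fold, 4-fold and 8-fold. It recovered 100% of each and made 27 false calls, so in this 1 run the false share of calls exceeded the threshold of 0.05. The planted changes were all at least 2-fold, whereas the called genes had median folds of 1.82 (higher) and 1.68 (lower). Recovery of such smaller differences was thus not tested. The simulated variances were drawn from the prior that limma estimated here, so this run cannot test that prior. Other steps used pandas 2.3.3 and numpy 2.4.6 under Python 3.11.15, and plots matplotlib 3.10.9. Gene lists are described by counts and medians, with no test. The comparison, the 70 lists and the genes of prior interest were chosen with earlier results of these data known. Genes were named from those of prior interest, per direction the 15 largest folds among called genes on at least 3 probesets whose arrays do not overlap, up to 4 called members per list with the largest fold and 1 in the other direction, and the 4 largest gaps between the treatments in each direction. Other genes were named after their values were seen, among them L1TD1, NKX1-2, PROM1, NPPB, MTHFD2, ZEB1, PDGFRB, MSX2, BMPR1A and those given only for a lost call, the olfactory and small RNA groups and copies of POU5F1, and the promoter letters were likewise chosen then, after a longer form of the same site. Alternatives covered scaling, dim genes, the summary of probesets, the treatment term, limma's variance model, the threshold and each array left out. The fixed prior degrees of freedom, identical probesets counted once, list medians with an array left out, and the settings of the correlation and of the separation of arrays were added after seeing the data.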

Additional observations from a re-analysis of the deposited data

Results flagged for a closer look

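Several values had opposite signs in the DMSO pair and the TBBD pair, where each pair holds 1 array per number. None of these differences between the treatments was tested, since no residual degree of freedom is left, and none of the 7 genes passed limma's threshold for the replicate number. CDH2 (N-cadherin) differed by -0.87 within DMSO and 0.25 within TBBD, and TUBB3 (a neuronal tubulin) by -0.58 and 0.25. LIPG (endothelial lipase) differed by -1.13 and 0.46, FOXL2 by -0.98 and 0.71, and the pseudogene SLC6A10P by -1.09 and 0.56. The opposite order held for KRT19, a keratin, at 0.52 and -0.49, and for DDIT4, a stress-induced inhibitor of mTOR, at 0.62 and -0.88. On the arrays DDIT4 stood at 7.65 and 8.48 for replicate 1 and 8.27 and 7.60 for replicate 2, and CDH2 at 9.34 and 8.49 against 8.47 and 8.74, so that DMSO replicate 1 was the highest array for CDH2. FOXL2 and SLC6A10P lay between 4.12 and 5.40 on all arrays, below the olfactory receptor median of 5.41.

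Medians of 4 lists also had opposite signs. They were -0.13 within DMSO and 0.22 within TBBD for definitive endoderm regulators, -0.11 and 0.22 for cholesterol synthesis, -0.14 and 0.15 for replication-dependent histones, and -0.14 and 0.13 for HOX genes of paralogue groups 9 to 13. These differences were not tested either.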

How the results depend on the processing

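The number of called genes depended on limma's variance model and on the threshold, and less on scaling. The 653 genes (428 higher, 225 lower) became 1001 with no treatment term (377 lower), 1310 at an adjusted p under 0.1 (765 and 545) and 160 under 0.01 (118 and 42). With the prior degrees of freedom set to 4, 165 passed (121 and 44), and set to 3, 0 passed, 0 higher and 0 lower (limma, 2908 at an unadjusted p under 0.05). Among the 9320 brightest genes 285 were higher, and with at least 3 probesets 346 were lower. Leaving out 1 array, without the treatment term, gave 368 to 685 genes, 265 to 458 higher and 103 to 227 lower, the fewest without TBBD replicate 2 and the most without DMSO replicate 2. Of the 653, 591 were also called after quantile normalization again, 653 after median centring and 465 with the median over probesets. Across the settings 1 of them, CFAP144P1, changed sign, to -0.014 with that median. Calls that ended with the median over probesets included those of CDX2, WNT8A, GATA2, CDH1, ESRP1, COL2A1, MAP2, FOXH1 and NGFR. The correlation between the treatments of 0.566 was 0.494 with the median over probesets, 0.631 for the 12427 brightest genes and 0.649 for the 9320 brightest, where 5434 genes had arrays that did not overlap. Of 41 lists with a median of at least 0.1 in size, 36 kept their sign in every setting of scaling, filter, probesets and arrays left out, and 36 had it in both treatments. The others were core pluripotency factors (-0.32 to 0.047 with an array left out), definitive endoderm (-0.58 among the 9320 brightest genes, -0.13 within DMSO, and -0.047 to 0.20 with an array left out), hypoxia targets (-0.10 within TBBD, -0.093 to 0.33), ribosome biogenesis (0.034 within TBBD, -0.38 to 0.043) and YAP targets (-0.28 to 0.010). Secreted Wnt genes stood at 0.054 within TBBD and glycolysis at 0.013 within DMSO. No cause of these changes was tested. The filters change both the number of genes tested and the estimated prior degrees of freedom. That prior was 7.475 with at least 3 probesets and 5.202 for the 9320 brightest genes. No paired analysis was possible because the replicate number is itself the comparison. Low signal limits the 4660 dimmest genes, of which 16 were called higher and 2 lower.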

Other observations

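Small RNA genes, a class not in the 70 lists and counted after their values were seen, differed by group on replicate 2. Of 60 measured H/ACA small nucleolar RNAs, which guide pseudouridylation of other RNAs, limma called 11 higher, or 18.3% beside 2.3% of all genes. It called 0 of them lower (1 lower at an unadjusted p under 0.05). Their median difference was 0.38, within DMSO 0.50 and within TBBD 0.14. Of 114 C/D small nucleolar RNAs, which guide methylation, 2 were called higher, or 1.75%, which is under the 2.3% of all genes. Limma called 0 of these lower (11 lower at an unadjusted p under 0.05), and their median was 0.02. Of 12 spliceosomal small nuclear RNAs 3 were called higher, and both replicate 2 arrays lay above both replicate 1 arrays for 11. Most of these genes rest on 1 probeset, and no cause was tested.

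Copies of POU5F1 were lower on replicate 2 as the parent gene was. POU5F1P3 stood at 8.89 and 8.60 on replicate 1 and 7.69 and 7.46 on replicate 2 (-1.17 ± 0.11, adjusted p = 0.00428 in limma). Such copies are nearly identical in sequence to POU5F1, so signal of the parent and of the copy cannot be told apart on these probes. Immediate early genes had 2 of 20 members called, EGR1 at 6.67 and 6.83 against 7.78 and 7.75 (1.01 ± 0.12, adjusted p = 0.00808) and FOS at 6.22 and 6.18 against 7.01 and 7.09 (0.85 ± 0.12, adjusted p = 0.0137), both higher on replicate 2. Macrophage and immune markers had 2 of 13 called higher, CD74 (0.86 ± 0.14) and TYROBP (0.57 ± 0.11), and the call of CD74 ended without DMSO replicate 1 (adjusted p = 0.0501) and that of TYROBP with each array left out.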
